A study of Mus musculus with 24 samples.

Results

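The clustered protocadherins are a family of cell-surface cadherins encoded side by side in 3 gene clusters, alpha, beta and gamma, on mouse chromosome 18. They were taken here as every gene whose symbol in the deposited mRNA table reads Pcdha, Pcdhb or Pcdhg followed by an optional letter a to c and a number. The rule found 58 gene IDs with 57 symbols among 36096 genes: 14 in the alpha cluster, 22 in the beta cluster and 22 in the gamma cluster. All lie on the plus strand between 36930184 and 37841873 of chromosome 18, in the coordinates of the deposited table (GRCm38). Of the gamma genes, 12 are gamma-A (Pcdhga), 7 are gamma-B (Pcdhgb) and 3 are c-type (Pcdhgc). With Pcdhac1 and Pcdhac2 of the alpha cluster there are 5 c-type genes, which stand last in their clusters. The table gives the symbol Pcdha11 to 2 gene IDs. The first, ENSMUSG00000007440, starts at 37005203, next to the start that RefSeq (GRCm38.p6) lists for Pcdha10 at 37005320. The second, ENSMUSG00000102206, starts at 37010712. Both were kept as separate members and are named by their IDs.

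As background, each clustered protocadherin is a single-pass membrane protein with a string of extracellular cadherin repeats that binds the same isoform on a neighbouring cell, and the isoform set of a neuron serves in telling its own branches from those of other cells. Each alpha and gamma gene has its own first exon and promoter, which is spliced to constant exons shared by the whole cluster, while beta genes are single-exon genes without a shared end. Individual neurons express a few alpha, beta and gamma isoforms picked by promoter choice, with CTCF, cohesin and promoter DNA methylation known to act on that choice, and the c-type genes are not picked in that way. Because the alpha gene models, and likewise the gamma models, end in the same constant exons, reads from those exons cannot be assigned to 1 gene and were divided among the models by the authors' estimation. Levels of single alpha and gamma genes are therefore uncertain to that extent. Beta genes lack these exons, though their coding exons resemble each other. Many beta genes had whole expected counts, as Pcdhb3 did with 160, 172 and 193 in the control males. Others had fractions, as Pcdhb21 did with 256.74, 312.77 and 303.64, so division of reads touched some beta genes more than others.

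The 12 ribosomal RNA-depleted libraries came from the medial frontal cortex of C57BL/6J mice at postnatal day 28, with 3 libraries in each group. Control males (CM1 to CM3) and control females (CF1 to CF3) carried Emx1-cre, a Cre that acts in the dorsal forebrain lineage of excitatory neurons and glia. Dnmt3l males (DM1 to DM3) and Dnmt3l females (DF1 to DF3) were offspring of Emx1-cre mice and a conditional Dnmt3l knock-in line, so every group carries Emx1-cre, and a bulk sample also holds cells outside that lineage. Dnmt3l encodes a DNMT3-like protein that has no methyltransferase activity of its own and binds the enzymes that set new DNA methylation. It had 0 to 3 counts in the controls. In the Dnmt3l libraries it had 603, 609 and 521 counts in DM1 to DM3 and 1179, 532 and 600 in DF1 to DF3, as the labels say. The labels do not say whether numbered samples are separate animals, so the p-values cover only the spread among samples, part of which may be technical. The comparison asks whether the family was expressed at another level in cortex with the Dnmt3l knock-in.

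Some libraries stood apart in ways that touch the results. DF1 had the highest Dnmt3l count, yet its clustered protocadherin share of all mRNA counts was 0.161%, against 0.152% to 0.161% in controls and 0.214% to 0.226% in the other 5 Dnmt3l libraries. Its mitochondrially encoded mRNAs made up 3.71% of counts, against 2.62% to 3.57% in controls and 5.54% to 7.26% in the other 5. CM3, CF1 and CF2 held liver transcripts, with Alb (albumin) at 32.6, 44.1 and 47.0 CPM against at most 0.49 CPM in the other 9. CPM here means counts relative to a library's total after TMM scaling, a correction for differing composition. FPKM also divides by transcript length, so it is the unit used to compare levels between genes. The libraries held between 22144970 mRNA counts (DF2) and 32100277 (CM3), with fewer in each Dnmt3l library than in any control, and the 57 members tested had between 89 and 10014 counts in a library.

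In control cortex the family was led by 3 c-type genes. Per transcript length, Pcdhgc5 had a mean of 79.2 FPKM over the 6 controls, Pcdhgc3 had 32.1 FPKM and Pcdhac2 had 18.6 FPKM. The remaining members ran from 1.00 FPKM for Pcdha1 to 10.8 FPKM for Pcdhga12, apart from Pcdhb1. These 3 leaders did not overlap in the controls: Pcdhgc5 lay between 72.3 and 85.8 FPKM, Pcdhgc3 between 28.9 and 34.5 FPKM and Pcdhac2 between 16.5 and 19.8 FPKM. Below them, Pcdhga12, Pcdhga9 (9.41 FPKM) and Pcdhga11 (9.06 FPKM) were the next highest in control mean FPKM. The highest alpha gene without the c-type was Pcdha6 at 4.88 to 5.48 FPKM per library and the highest beta gene was Pcdhb22 with a mean of 6.06 FPKM. Pcdhb1, the first beta gene, had 0 to 14 counts per library and was the only member under the filter on low values, so 57 of 58 members were tested. The 5 c-type genes together took 37.4% ± 1.31 (SD, n = 6) of the family's counts in controls.

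Most of the family rose together in the Dnmt3l groups. Averaged over the sexes, 51 of the 57 members tested were higher at an adjusted p below 0.05 (edgeR quasi-likelihood test, Benjamini-Hochberg over 15786 genes), where 25.2% of all genes tested were called higher. None was lower (edgeR, and 0 with DESeq2), where 26.4% of all genes were called lower. At an unadjusted p below 0.05, 0 of 57 were lower too, where 4618 of the 15786 genes were (edgeR). The median log2 change of the members was 0.61, and that of all genes tested was 0.02. In bulk tissue, more cells that express a gene and more RNA per cell cannot be told apart, and this holds for each change below. The 6 members not called were Pcdha1, Pcdha4, Pcdha12, Pcdhac1, Pcdhga11 and Pcdhga12. Leaving out CM3, CF1 and CF2 gave 38 members called higher, where 12.2% of all genes were, and leaving out DF1 as well gave 54, where 25.1% were. Leaving out DF1 alone also gave 54, where 30.1% of all genes were called higher.

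**Figure D1:**
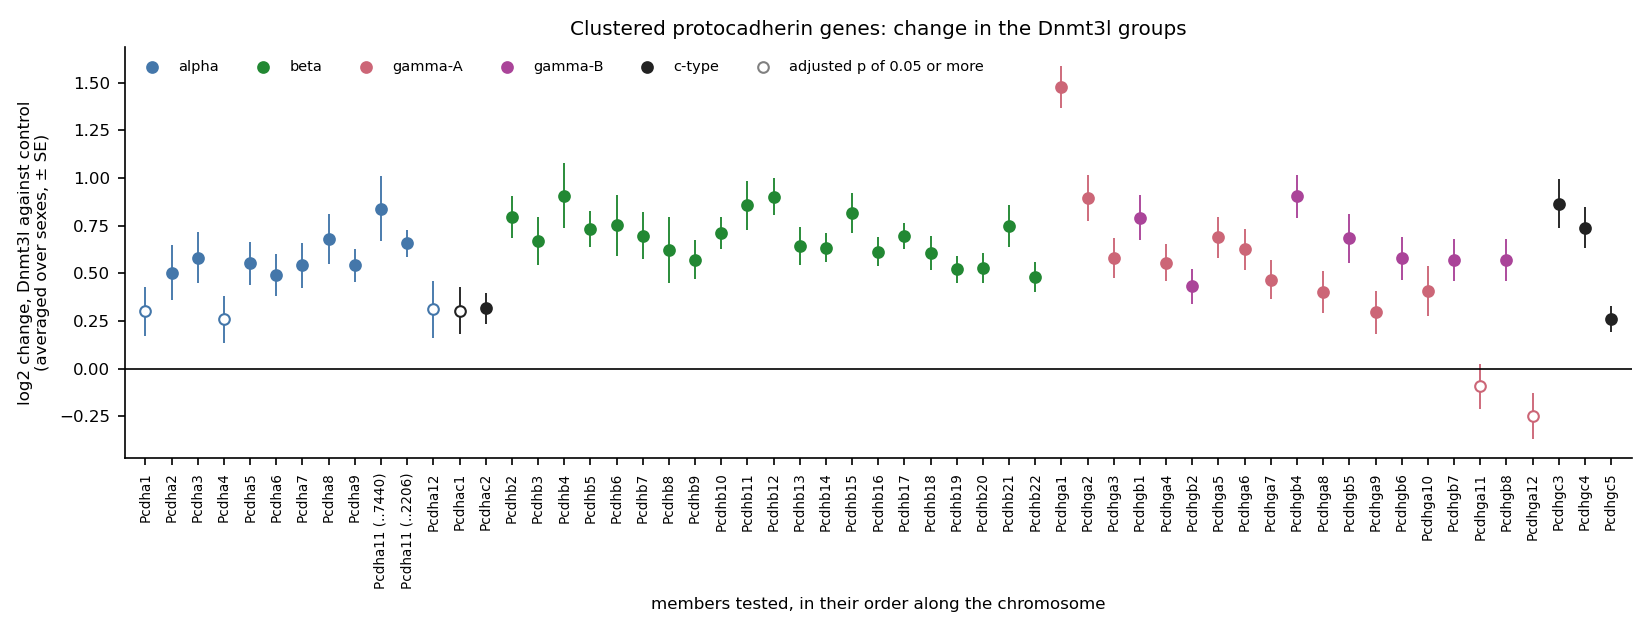
Log2 change in the Dnmt3l groups against control (vertical axis, averaged over sexes, bars ± SE) for the 57 members tested, in their order along the chromosome and coloured by subfamily (the 2 gene IDs named Pcdha11 are told apart by the ends of their IDs). Filled points passed an adjusted p of 0.05 and open points did not. All beta genes lie between 0.48 and 0.91, and the gamma-A genes run from 1.48 at Pcdhga1 down to -0.25 at Pcdhga12.

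The alpha cluster had the fewest calls of the 3. Here 10 of 14 genes were called higher, with a median log2 change of 0.52 and a range of 0.26 to 0.84. The highest alpha gene by FPKM without the c-type, Pcdha6, had 24.2, 20.8 and 22.5 CPM in CM1 to CM3 and 22.7, 24.0 and 22.6 CPM in CF1 to CF3. In DM1 to DM3 it had 31.3, 38.1 and 31.8 CPM, and in DF1 to DF3 it had 22.3, 36.4 and 32.7 CPM. All Dnmt3l libraries but DF1 were above every control, and DF1 was within the control range. The log2 change was 0.49 ± 0.11 (SE), with an adjusted p of 0.00251 (edgeR). It was not called without CM3, CF1 and CF2 (adjusted p = 0.0527, edgeR). The genes at both ends of the variable array, Pcdha1 and Pcdha12, did not pass the test.

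Pcdha1, the first gene of the array, had 3.93 to 5.42 CPM in the controls, 7.38, 5.75 and 6.50 CPM in the Dnmt3l males and 4.77, 4.02 and 5.60 CPM in the Dnmt3l females. The males lay above the controls and the females largely among them, and the averaged log2 change was 0.30 ± 0.13 (SE; adjusted p = 0.0658, edgeR). Upper-quartile scaling called it higher (adjusted p = 0.0377), as did leaving out DF2 (0.0398). Pcdha12, the last variable alpha gene, ran from 19.9 to 30.7 CPM in controls. Its Dnmt3l levels were 37.0, 30.3 and 26.2 CPM in males and 17.96, 29.1 and 34.5 CPM in females, so the genotypes overlapped and DF1 was below every control. Its log2 change of 0.31 ± 0.15 (SE) had an adjusted p of 0.0979 (edgeR), which became 0.00457 without DF1. Pcdha4 changed by 0.26 ± 0.12 (SE; adjusted p = 0.0965) and was called without DF1 (0.0413) or without CF1 (0.0396), the control in which it was highest at 28.7 CPM. Between these ends, the member ENSMUSG00000007440 had the largest alpha change at 0.84 ± 0.17 (SE), and ENSMUSG00000102206 changed by 0.66 ± 0.07 (SE) with all 6 Dnmt3l libraries above all controls.

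Beta genes moved as a block. All 21 tested were called higher, with a median log2 change of 0.70 and a range of 0.48 to 0.91. In 18 of the 21, all 6 Dnmt3l libraries were above all 6 controls, a pattern that 5.47% of all genes tested showed, and in none were all 6 below, as 6.83% of all genes were. The first tested gene, Pcdhb2, had 4.25, 5.04 and 4.89 CPM in control males and 4.99, 6.38 and 5.94 CPM in control females. It had 8.14, 9.12 and 7.93 CPM in Dnmt3l males and 8.19, 11.1 and 10.1 CPM in Dnmt3l females, with no overlap, and a log2 change of 0.79 ± 0.11 (SE; adjusted p = 0.000306, edgeR). The last, Pcdhb22, is also the highest beta gene by FPKM. Its level of 20.4 to 26.9 CPM in controls compared with 36.3, 35.5 and 33.1 CPM in Dnmt3l males and 27.6, 35.3 and 31.6 CPM in Dnmt3l females. Here too the genotypes did not overlap, DF1 lay just above the highest control, and the log2 change was 0.48 ± 0.08 (SE; adjusted p = 0.000506).

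The largest beta changes were those of Pcdhb4 and Pcdhb12. Pcdhb12 had 9.20, 9.13 and 9.24 CPM in control males and 10.2, 11.6 and 9.54 CPM in control females. In the Dnmt3l groups it had 19.1, 21.0 and 17.9 CPM in males and 14.3, 17.4 and 20.3 CPM in females, so each Dnmt3l library exceeded each control. The change was 0.90 ± 0.10 (SE) on the log2 scale, with an adjusted p of 0.000142 (edgeR). Pcdhb4, expressed at 3.83 to 5.78 CPM in controls and 6.60 to 10.9 CPM in Dnmt3l libraries, changed by 0.91 ± 0.17 (SE; adjusted p = 0.00103). The 3 beta genes whose genotypes overlapped were Pcdhb6, Pcdhb8 and Pcdhb11. These were named after their values were seen.

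In the gamma cluster 20 of 22 genes were called higher, with a median log2 change of 0.57. The gamma-B genes were all called (7 of 7), from 0.43 for Pcdhgb2 to 0.90 for Pcdhgb4. Pcdhgb4 had 18.6, 24.8 and 21.3 CPM in control males and 20.3, 21.2 and 21.8 CPM in control females. It rose to 47.3, 38.1 and 46.4 CPM in Dnmt3l males and to 27.4, 43.3 and 38.0 CPM in Dnmt3l females, without overlap (0.90 ± 0.11 SE; adjusted p = 0.000211, edgeR). Of the 12 gamma-A genes, which alternate with gamma-B genes along the array, 10 were called higher, and their changes spanned a wider range than in any other subfamily, -0.25 to 1.48.

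Pcdhga1, the first gene of the gamma cluster, had the largest change of all 57 members tested. It was expressed at 11.9, 10.4 and 9.33 CPM in control males and 10.5, 10.3 and 8.39 CPM in control females. The Dnmt3l males had 27.7, 32.6 and 31.0 CPM and the Dnmt3l females 20.5, 27.9 and 30.2 CPM. Every Dnmt3l library, DF1 included, was above every control, and the log2 change was 1.48 ± 0.11 (SE; adjusted p = 1.5e-05, edgeR), a fold of 2.79. Its neighbour Pcdhga2 was at 17.3 to 24.8 CPM in controls and 28.1 to 49.9 CPM in Dnmt3l libraries, again without overlap, and changed by 0.90 ± 0.12 (SE; adjusted p = 0.000283).

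At the other end of the gamma-A series the genes did not rise. Pcdhga11 had 37.8, 38.1 and 40.5 CPM in control males and 39.4, 39.2 and 43.5 CPM in control females. Its Dnmt3l levels were 38.9, 43.6 and 42.0 CPM in males and 22.4, 37.6 and 40.4 CPM in females, all within or near the control range except the low DF1 (log2 change -0.09 ± 0.12 SE; adjusted p = 0.524, edgeR). Pcdhga12, the highest gamma gene without the c-type by FPKM in controls, had 44.8 to 53.9 CPM there. The Dnmt3l libraries gave 46.6, 44.5 and 47.2 CPM in males and 23.9, 40.1 and 44.8 CPM in females. DF1 was far below the others, and the log2 change of -0.25 ± 0.12 (SE) did not pass the test (adjusted p = 0.0988). It did pass without DF1 (-0.15; adjusted p = 0.0341), without DF3 (-0.34; 0.0281) and with library totals as the only scaling (-0.34; 0.0256), each time as lower. Pcdhga9, with 29.5 to 36.3 CPM in controls and 44.1 to 45.5 CPM in 5 Dnmt3l libraries but 26.3 CPM in DF1, changed by 0.29 ± 0.11 (SE; adjusted p = 0.0434). Its call was lost on leaving out any 1 of the 11 libraries other than DF1 (adjusted p of 0.0571 to 0.112).

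Taken in order from Pcdhga1 to Pcdhga12, the averaged log2 changes were 1.48, 0.90, 0.58, 0.55, 0.69, 0.63, 0.47, 0.40, 0.29, 0.41, -0.09 and -0.25. As a description across genes, which share libraries and constant exons and are not independent, Spearman's rho of the change with position was -0.92 (n = 12 genes). Within single Dnmt3l libraries rho of the deviation from the control mean with position lay between -0.85 and -0.96, and within single control libraries between -0.53 and 0.41. The control deviations are taken from the controls' own mean, so their lack of a shared slope was fixed in advance. All Dnmt3l libraries are set against that same mean, so their orders are not independent. DF1, whose family total was the lowest of the Dnmt3l libraries, showed the same order: its deviation was 1.03 at Pcdhga1, 0.35 at Pcdhga6, -0.82 at Pcdhga11 and -1.02 at Pcdhga12. Position also went with the control level, since rho of position with control FPKM was 0.69 and rho of the change with control FPKM was -0.83 over the same genes. The other arrays were less ordered: rho of change with position was -0.39 over the 7 gamma-B genes, -0.51 over 21 beta genes and 0.40 over 12 alpha genes without the c-type. The part of the control level and of the division of shared reads in this order was not tested.

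**Figure D2:**
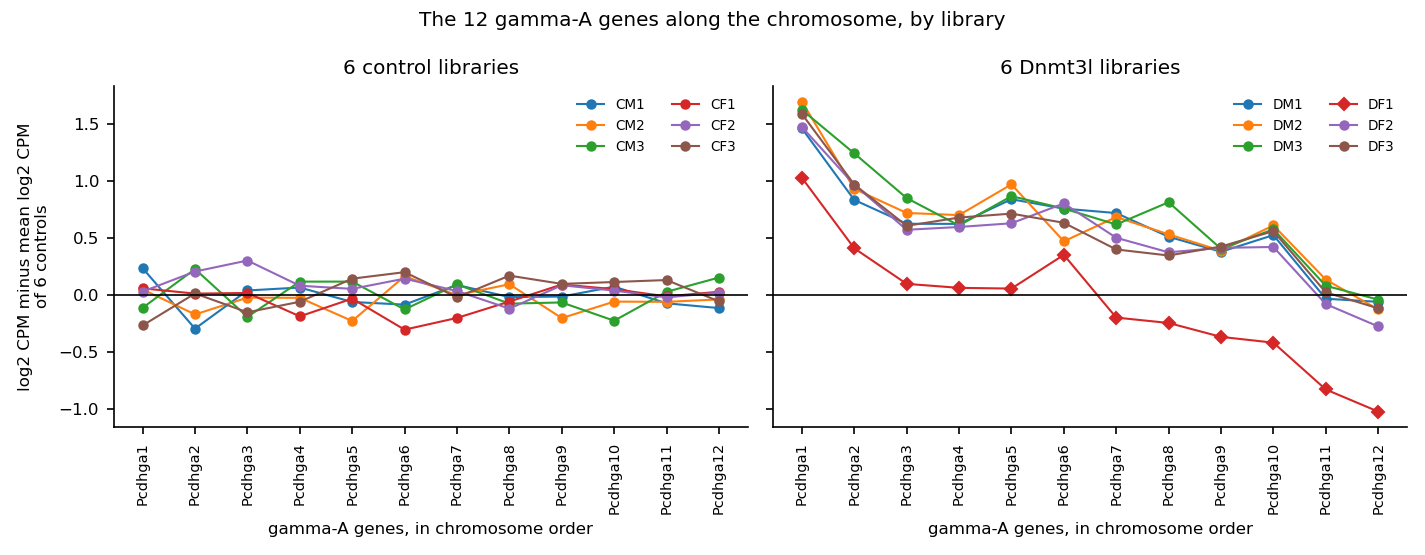
Deviation of each of the 12 gamma-A genes from its mean over the 6 controls (vertical axis, log2 CPM), in chromosome order, with 1 line per library and controls and Dnmt3l libraries in separate panels. All 6 Dnmt3l lines fall from left to right, the line of DF1 (diamonds) lies below the other 5, and it runs from 1.03 to -1.02. The control lines are centred on their own mean, so they could not share a slope.

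The 5 c-type genes did not change alike. Pcdhgc3 and Pcdhgc4 had log2 changes of 0.87 and 0.74, and Pcdhac1, Pcdhac2 and Pcdhgc5 had 0.30, 0.32 and 0.26. The median of the c-type genes was 0.32 (4 of 5 called higher), beside 0.61 over the other 52 members (47 called higher). Pcdhgc3 was at 136, 131 and 142 CPM in control males and 122, 137 and 127 CPM in control females. Dnmt3l males had 284, 264 and 252 CPM and Dnmt3l females 142, 217 and 295 CPM. All 6 were above the controls, but DF1 only by a margin of under 1 CPM, at 142.4 CPM against 141.9 CPM in CM3 (0.87 ± 0.13 SE; adjusted p = 0.000385, edgeR). Pcdhgc4, the isoform known to be needed for survival of neurons and of the newborn mouse, had 22.9, 24.2 and 24.5 CPM in control males and 20.2, 19.5 and 23.4 CPM in control females. It reached 40.8, 39.4 and 39.9 CPM in Dnmt3l males and 27.1, 32.8 and 45.3 CPM in Dnmt3l females without overlap (0.74 ± 0.11 SE; adjusted p = 0.000345).

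The 3 remaining c-type genes overlapped between the genotypes. Pcdhgc5, the member with the highest level, had 319.5, 261 and 284 CPM in control males and 332, 306 and 288 CPM in control females. The Dnmt3l males lay above all of these at 392, 411 and 384 CPM, and the Dnmt3l females mostly among them at 301, 305 and 359.9 CPM (0.26 ± 0.07 SE; adjusted p = 0.00809). On the deposited FPKM values the change of Pcdhgc5 was 0.06 and not called (adjusted p = 0.494, limma). The median log2 change of all genes was also lower on these values, at -0.06 against 0.02 in the main fit. Without CM3, CF1 and CF2 the change of Pcdhgc5 was 0.28 (adjusted p = 0.0722, edgeR). Pcdhac2 had 88.2 to 109 CPM in controls, 140.0, 154 and 131 CPM in Dnmt3l males and 97.3, 114 and 129.8 CPM in Dnmt3l females, with DF1 inside the control range (0.32 ± 0.08 SE; adjusted p = 0.00638). Pcdhac1, at 12.8 to 17.1 CPM in controls and 14.0 to 22.5 CPM in Dnmt3l libraries, had a log2 change of 0.30 ± 0.12 (SE) and an adjusted p of 0.054. DESeq2 (adjusted p = 0.0381) and edgeR without DF1 (0.00284) called it higher. Within the gamma counts, Pcdhgc5 held 30.7% ± 2.26 (SD, n = 6) in controls and 26.3% ± 2.79 (SD, n = 6) in Dnmt3l libraries, and Pcdhgc3 held 13.7% ± 0.771 and 17.4% ± 1.85.

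**Figure D3:**
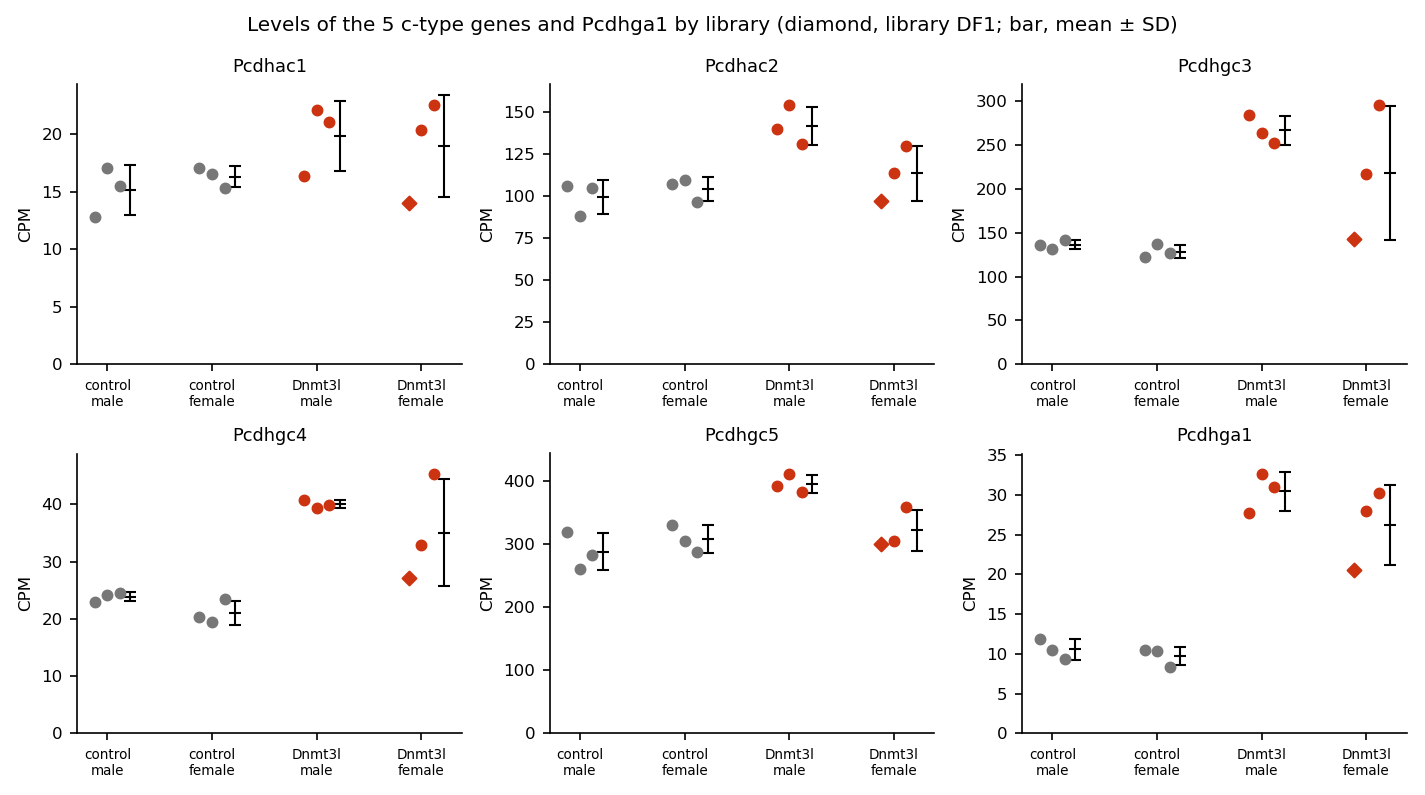
Level in CPM (vertical axes, each starting at 0) of the 5 c-type genes and of Pcdhga1 in each library, with the mean ± SD of the 3 libraries of each group beside the points and DF1 as a diamond. For Pcdhgc3, Pcdhgc4 and Pcdhga1 all Dnmt3l points are above all control points, while for Pcdhac1, Pcdhac2 and Pcdhgc5 at least DF1 lies among the controls.

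Summed over members, the family stood at 1528 ± 50.1 CPM (SD, n = 6) in controls and 2189 ± 301 CPM (SD, n = 6) in Dnmt3l libraries. The 5 Dnmt3l libraries other than DF1 lay between 2133 and 2400 CPM, DF1 was at 1605 CPM and the highest control at 1582 CPM. The division between clusters moved little: the alpha cluster held 19.2% ± 0.734 (SD, n = 6) of the family's counts in controls and 18.1% ± 0.507 in Dnmt3l libraries, the beta cluster 17.3% ± 0.736 and 19.2% ± 1.46, and the gamma cluster 63.5% ± 0.859 and 62.7% ± 1.72. DF1 had the highest beta share of all libraries at 21.6% and the lowest gamma share at 59.9%.

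DF1 did not sit at one level for the whole family. It was above all 6 controls for 28 of the 57 members tested (20% of all genes tested were), and these included 18 of the 21 beta genes. For 8 members it was below all 6 controls (20.6% of all genes were): Pcdha2, Pcdha12, Pcdhga8, Pcdhga9, Pcdhgb6, Pcdhga10, Pcdhga11 and Pcdhga12. The median deviation of DF1 from the control mean was 0.37 on the log2 scale over the beta genes, 0.12 over the alpha genes without the c-type and -0.07 over the gamma-A genes. In the other 5 Dnmt3l libraries the medians over the beta genes were 0.66 to 0.77 and over the gamma-A genes 0.54 to 0.69. All 6 Dnmt3l libraries were above all controls for 28 members (5.47% of all genes), and without DF1 the other 5 were above all controls for 49 of 57 (19.4% of all genes) and below all controls for none (23.7% of all genes).

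**Figure D4:**
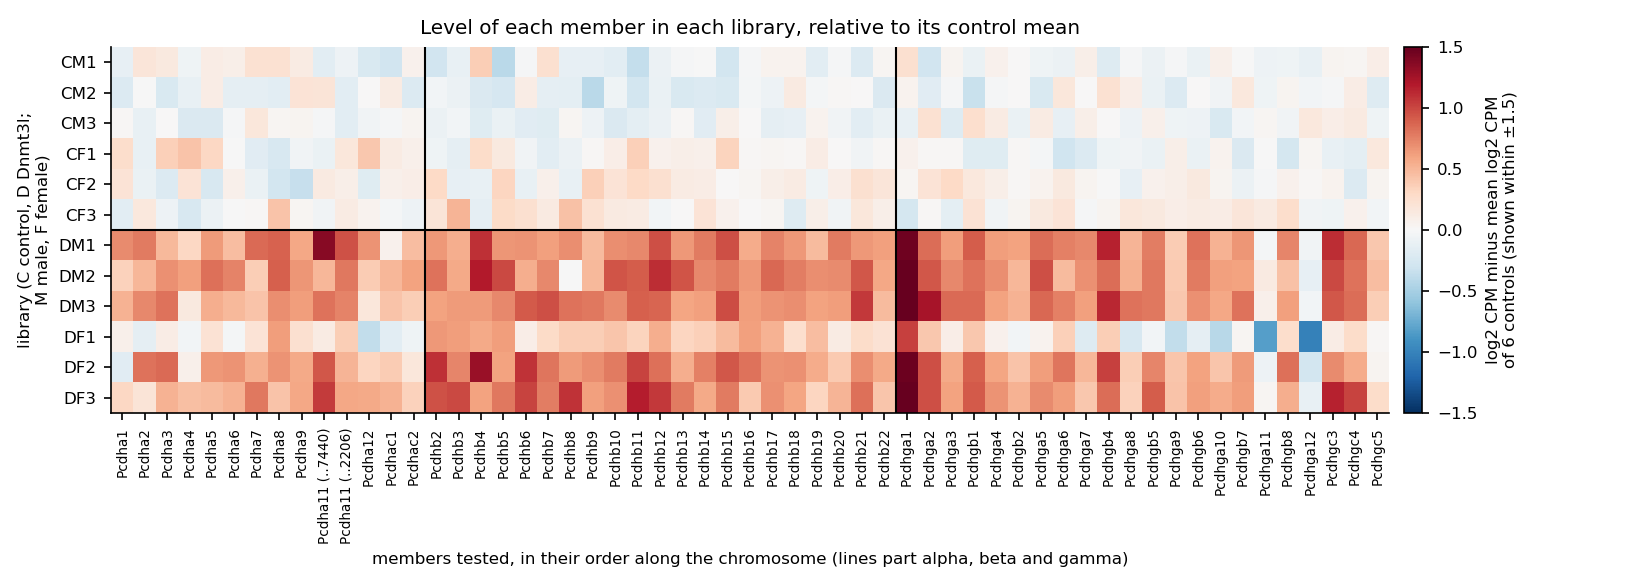
Level of the 57 members tested (columns, in chromosome order, with lines between the clusters) in each of the 12 libraries (rows), as log2 CPM minus the member's mean over the 6 controls, with colours limited to ±1.5. DM1 to DM3, DF2 and DF3 are above the control mean for nearly the whole family, and DF1 is above it for the beta genes and Pcdhga1 and below it for the gamma-A genes Pcdhga7 to Pcdhga12.

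By sex, 52 members were called higher in males, where 20.4% of all genes were, and 24 in females, where 4.73% were. None was called lower in males (edgeR and DESeq2; 22.7% of all genes were) or in females (4.38% of all genes were). At an unadjusted p below 0.05, 0 were lower in males and 1 in females, where 4259 and 2688 of the 15786 genes were. The median log2 change was 0.69 in males and 0.49 in females. Pcdhga1 changed by 1.53 in males and 1.43 in females (adjusted p = 0.000406 and 0.00125, edgeR), and Pcdhgc4 by 0.74 in each sex. Pcdha1 was called in males (0.63; adjusted p = 0.0145) and had a log2 change of -0.03 in females (adjusted p = 0.928). The female count rests on single libraries: it was 50 without DF1, where 21.8% of all genes were called higher, between 1 and 9 on leaving out any of the other 11 libraries, where 2 to 251 of the 15786 genes tested were called higher, and 0 without CM3, CF1 and CF2, where 0.0127% of all genes were. The difference between the sexes in the genotype effect was itself tested, and no member was called (edgeR, 0 of 57 and 0% of all genes; 0 members with DESeq2). At an unadjusted p below 0.05, 12 members had a higher log2 change in males than in females and 0 the reverse, where 610 and 510 of the 15786 genes did. Control females and control males did not differ in any member at the adjusted threshold either (edgeR and DESeq2), where 0.0253% of all genes did (edgeR). At an unadjusted p below 0.05, 6 members were higher in control females and 0 lower, where 105 and 140 of the 15786 genes were.

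Transcript models gave a further view of the same reads, and the fit per transcript was chosen after the data were seen. The members have 88 transcripts, of which 79 were tested. Among them 44 were called higher, where 4.78% of the 54587 transcripts tested were, and 1 lower, where 9.19% were (edgeR). The median log2 change of the members' transcripts was 0.49, beside 0.07 over all transcripts. In 37 members there is 1 transcript, so that the gene and the transcript have the same counts. The fit per transcript has its own scaling and adjustment, so its changes and calls differ from those per gene. Pcdhac2, with 1 transcript, had a log2 change of 0.18 per transcript (adjusted p = 0.146, edgeR). Per gene it was 0.32 (adjusted p = 0.00638, edgeR). Changes per transcript are therefore not on the same scale as those per gene.

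The transcript called lower belongs to Pcdhga12, the only member with transcripts called in both directions. ENSMUST00000044851 (5080 nt) had 33.1, 37.3 and 41.2 CPM in control males and 36.6, 40.9 and 33.9 CPM in control females. Its levels were 21.9, 18.6 and 22.2 CPM in Dnmt3l males and 10.8, 11.8 and 22.5 CPM in Dnmt3l females. All Dnmt3l libraries were below all controls, and DF1 and DF2 were the lowest (log2 change -1.07 ± 0.17 SE; adjusted p = 0.00633, edgeR). ENSMUST00000193045 (4352 nt) went the other way, from 10.9 to 15.4 CPM in controls to 21.6, 23.0 and 22.8 CPM in Dnmt3l males and 13.7, 26.2 and 19.8 CPM in Dnmt3l females (0.63 ± 0.16 SE; adjusted p = 0.024). Only DF1 was among the controls, and the call was lost without CM1, CM2 or CF2 (adjusted p of 0.0525 to 0.0589). The longer transcript made up 68.8% to 78.9% of the gene's counts in controls and 31.1% to 53.2% in Dnmt3l libraries.

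In other gamma genes 1 transcript was called higher and another was not, and the difference between the transcripts of a gene was not tested. In Pcdhgb2 the shorter transcript (2756 nt) rose by 1.16 ± 0.27 (SE; adjusted p = 0.0199), and the longer (4661 nt) had a log2 change of -0.30 ± 0.16 (adjusted p = 0.251). In Pcdhga9 the values were 0.66 ± 0.15 (adjusted p = 0.019) for the shorter and -0.20 ± 0.13 (0.353) for the longer, and in Pcdhga7 they were 0.72 ± 0.18 (0.0254) and -0.08 ± 0.17 (0.812). Of the 11 gamma genes with exactly 2 tested transcripts of at least 2000 nt, the shorter had the higher log2 change in 8, and 7 of the shorter and 3 of the longer transcripts were called higher. The exceptions were Pcdhga1, Pcdhgb5 and Pcdhgc5. In Pcdhga1 the longer transcript, ENSMUST00000194190 (4692 nt), rose by 1.61 ± 0.21 (adjusted p = 0.00483), and the shorter, ENSMUST00000194888 (3247 nt), had a log2 change of 0.71 ± 0.28 (adjusted p = 0.123). In CF1 and CF3 the shorter one held 58.2% and 57.2% of the counts of Pcdhga1, against 13.9% to 17.4% in the other 4 controls, so the division between them also varied among controls. These genes were singled out after their values were seen, and how far the division of reads between models sets the values was not tested.

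**Figure D5:**
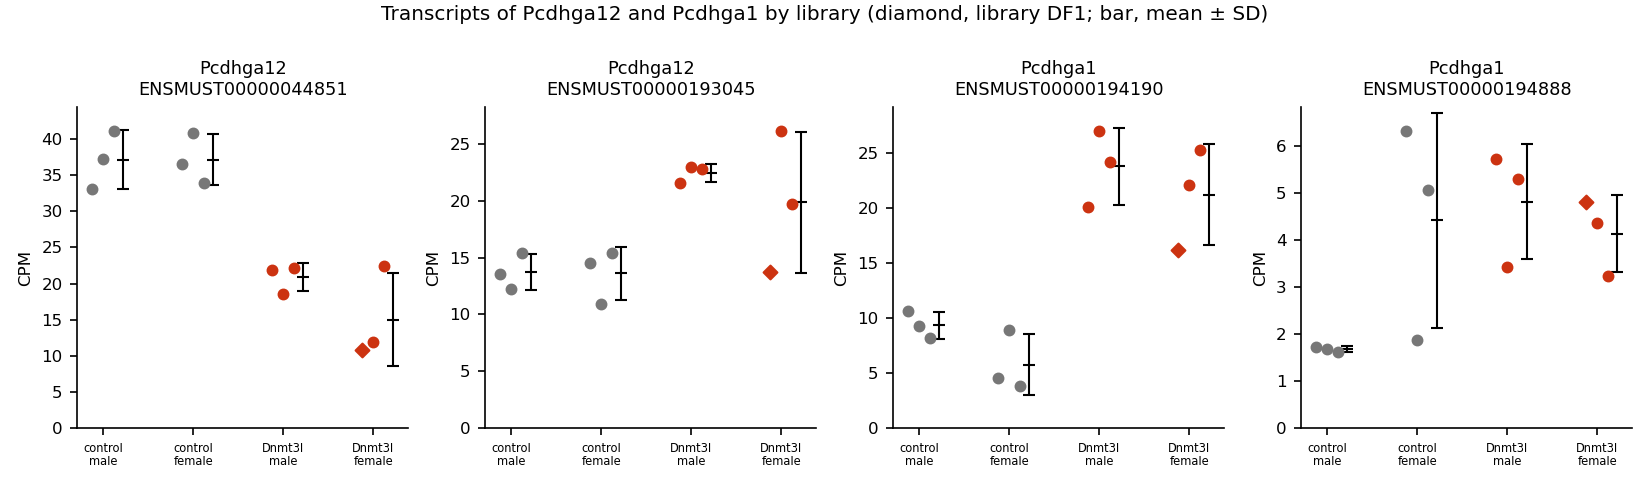
Level in CPM (vertical axes, each starting at 0) of the 2 transcripts of Pcdhga12 and the 2 of Pcdhga1 in each library, with the mean ± SD of the 3 libraries of each group and DF1 as a diamond. For the longer Pcdhga12 transcript all Dnmt3l points lie below the control points, at 10.8 to 22.5 CPM against 33.1 to 41.2 CPM, and for the longer Pcdhga1 transcript all lie above them.

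Among genes that are no members but lie between the first and the last member or within 500 kb of them, 45 were found and 36 tested. Of these, 14 were called higher and 6 lower, with a median log2 change of 0.15. Inside the interval 6 of 8 tested genes were higher and 1 lower, with a median of 0.92. Outside the interval, 8 of 28 were higher and 5 lower, with a median of 0.09, close to the 25.2% of all genes called higher and their median of 0.02. The 3 called neighbours with the largest changes were Eif4ebp3, Gm37388 and Pcdh12. Gm37388, which starts at 36975941 inside the long gene model of Pcdha1 so that reads of the overlap may be shared, went from 0.91 to 1.45 CPM in controls to 2.02 to 3.85 CPM in Dnmt3l libraries (1.39 ± 0.22 SE; adjusted p = 0.000441, edgeR). Pcdh12, a non-clustered protocadherin of endothelial cells, changed by 1.22 ± 0.27 (SE; adjusted p = 0.00282), with DF1 at 1.16 CPM inside the control range of 0.75 to 1.33 CPM. With only its top transcript counted, the log2 change of Pcdh12 was -0.91 and was not called (adjusted p = 0.438, edgeR). Eif4ebp3 had 0 to 14 counts per library, and its call (1.63 ± 0.61 SE; adjusted p = 0.0395) was lost on leaving out any of 8 of the 12 libraries. Taf7, a subunit gene of the general transcription factor TFIID inside the interval, fell by 0.39 on the log2 scale (adjusted p = 0.0319).

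Other RNA classes gave little signal from the clusters. The 3 long non-coding transcripts that overlap the interval had 0 to 4 counts per library. Of these, 2 were tested and 0 were called (edgeR; 0 at an unadjusted p below 0.05), where 0.298% of all long non-coding transcripts tested were called higher and 0.196% lower. The 1 circular RNA in the interval had a deposited value in CM1 equal to about 6 junction reads, judged from the steps between that library's values, and was listed at 0 in all other libraries.

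Regulators and partners of the family were read against the shares over all genes tested, of which 25.2% were called higher and 26.4% lower with a median log2 change of 0.02. Of 22 tested chromatin and architecture factors known to act on the clusters, 4 were called higher and 5 lower, with a median log2 change of 0.01, so the shares in both directions were not above those of all genes. Ctcf, the insulator protein that binds the clusters' promoters and enhancers, had 60.3 to 69.5 CPM in controls, 64.1 CPM in DF1 and 39.1 to 44.8 CPM in the other 5 Dnmt3l libraries (-0.49 ± 0.10 SE; adjusted p = 0.00129, edgeR). Trim28, a corepressor of zinc-finger proteins, changed by -0.32 ± 0.07 (SE; adjusted p = 0.00205), which was not called on the FPKM values (adjusted p = 0.0515, limma), and Wiz, a zinc-finger partner of the G9a histone methyltransferases, by 0.34 ± 0.08 (SE; adjusted p = 0.00387). Cytoplasmic partners of the family fell more often than they rose: 13 of 22 were lower and 1 higher, with a median of -0.34, where 26.4% of all genes were lower and 25.2% higher. Wasf1, a subunit of the WAVE actin regulator that binds protocadherin tails, fell by 0.81 (adjusted p = 0.000183), and Ptk2b (Pyk2), a kinase inhibited by the constant domains, fell by 0.74 (adjusted p = 0.000164). Pdcd10, another binding partner, also fell by 0.74 (adjusted p = 0.000846). In all 3, DF1 was nearer to the controls than the other 5 were, with Wasf1 at 199.8 CPM in DF1, 207 to 279 CPM in controls and 118 to 136 CPM in the other 5.

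Among enzymes that shed and cut protocadherins and among other cadherins, more genes rose than fell. Of 9 genes of ectodomain shedding and gamma-secretase, 6 were higher and none lower (0 of 9 with edgeR), with a median log2 change of 0.30, where 25.2% of all genes were higher and 26.4% lower. Adam17, a sheddase, changed by 0.61 (adjusted p = 0.00206), Ncstn, the substrate-binding subunit of gamma-secretase, by 0.48 (adjusted p = 0.00117) and Psen2, a catalytic subunit, by 0.41 (adjusted p = 0.00798). Adam17 and Psen2 were not called on the FPKM values (adjusted p = 0.747 and 0.0786, limma) or without CM3, CF1 and CF2 (adjusted p = 0.0518 and 0.0542, edgeR). Of 20 tested classical and atypical cadherins, 14 were higher and none lower, with a median of 0.41 (edgeR), beside the same shares over all genes. The largest changes were those of Dchs1, a giant cadherin and ligand of Fat4, at 0.78 (adjusted p = 0.0015), Cdh22 at 0.73 (adjusted p = 0.000142) and Celsr3, a seven-pass cadherin of axon tract formation, at 0.66 (adjusted p = 0.000264). DF1 was below the controls for Dchs1 (27.8 CPM against 28.5 to 39.9 CPM) and above them for Cdh22 (47.1 CPM against 30.6 to 36.8 CPM).

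Markers of several cell types moved with the same libraries, and their calls stand beside the 25.2% of all genes called higher and 26.4% called lower. Summed over the list, astrocyte markers were at 6788 to 7414 CPM in controls, 7624 CPM in DF1 and 11464 to 13973 CPM in the other 5 Dnmt3l libraries, with 9 of 10 genes higher. Microglia markers (9 of 10 higher) were at 269 to 307, 297 and 473 to 585 CPM in the same order. Endothelial markers (10 of 10 higher) were at 240.3 to 260.2, 282 and 454 to 547 CPM, and oligodendrocyte precursor markers (6 of 8 higher) at 324 to 421, 329 and 574 to 676 CPM. The oligodendrocyte list had 5 of 10 higher and 2 lower, at 3662 to 6747, 3540 and 6387 to 10968 CPM. Excitatory neuron markers had 3 of 15 higher and 7 lower, with a median log2 change of -0.32. Their sum, in which the most abundant markers weigh most, went the other way, at 5520 to 6614, 7209 and 6751 to 8022 CPM. Interneuron markers had 4 of 12 higher and 6 lower, at 952 to 1042, 865 and 947 to 1084 CPM, with a median of -0.08. Of the mitochondrially encoded mRNAs 9 of 13 were higher. No marker of these lists was at 0 in all libraries, and Slc17a7, the vesicular glutamate transporter of cortical excitatory neurons, was at 967 to 1624 CPM. Choroid plexus and meningeal markers had 1 of 10 called (higher), markers of neighbouring brain regions 1 of 9 higher and 2 lower, and liver transcripts 10 of 13 lower with a median of -4.59. The part of these cell type, mitochondrial and library differences in the rise of the protocadherins was not tested.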

How the data were processed

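The 12 ribosomal RNA-depleted libraries were used, and the small RNA libraries were not analysed here. Per the labels' protocols, 1 μg of RNA with an integrity number above 6.5 was depleted of ribosomal RNA and the second strand was marked with dUTP. Per the submitters' processing notes the genome build was GRCm38, and the tools, whose roles are not given, included HISAT2 2.0.1 and HTSeq 0.6.1, besides cutadapt 1.9.1. The program that counted, and its use of strand, are not given in the sources used here. The authors deposited, per the file headers, expected counts per transcript and FPKM for mRNA (119414 transcripts) and for long non-coding RNA. For circular RNAs the deposited value is a score that scales with junction reads.

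Expected counts were summed per gene ID and rounded. Transcripts without a gene ID, 0.534% to 0.602% of counts, were left out. Genes with at least 0.5 FPKM in at least 3 libraries were tested with edgeR 4.0.16 (TMM, quasi-likelihood) in R 4.3.3, with a mean for each of the 4 groups (8 degrees of freedom remain), two-sided, Benjamini-Hochberg adjusted over 15786 genes, at a threshold of 0.05. Long non-coding transcripts were tested at 0.1 FPKM or more. Alternatives used DESeq2 1.42.0 and limma 3.58.1 on log2 values. The edgeR fits averaged over sexes (genes, transcripts and long non-coding transcripts) were tested on simulated data. Few genes were changed there, and all had the same spread. At a fold of 1.5, 88.1% of changed genes, 62.7% of transcripts and 32.8% of long non-coding transcripts were recovered. Far more genes were called in the real data, so the simulation does not measure error rates there. The single-sex contrasts and the other tools were not tested on simulated data. All 12 libraries differed in total counts.

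The members, the gene lists and the alternatives were chosen with earlier results of these data known. Named members are the c-type genes, the first and last tested gene of each array, its highest by FPKM, the 5 largest and 5 smallest absolute changes and members not called. Named other genes are the 3 called genes with the largest change in each pathway list and among neighbours. Taf7, Slc17a7, Alb and Dnmt3l were named outside this rule.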

Additional observations from a re-analysis of the deposited data

How the results depend on the processing

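The count of 51 members called higher, averaged over sexes, was 49 to 54 when each library was left out in turn, where 3318 to 4744 of all genes were. Under the other alternatives it was 38 to 54, where 1920 to 4563 of all genes were. One member, Pcdhga12, was called lower with library totals as the only scaling and with 1 transcript per gene (count of 1 in each), and 0 to 1 were lower when a library was left out. The count in females ranged from 1 to 50 when a library was left out, where 2 to 3448 of the 15786 genes were called higher. It was 4 on log2(FPKM + 0.1), 4 on log2(FPKM + 1), 1 with the top transcript per gene and 0 without CM3, CF1 and CF2. Over all genes, 94, 93, 5 and 2 were called higher in females in these 4 settings. The median change of all members, 0.61, was 0.51 with library totals, 0.50 and 0.42 on FPKM with pseudocounts of 0.1 and 1, 0.68 with the top transcript and 0.55 without CM3, CF1 and CF2. In the first 3 of these settings the alpha median without the c-type was 0.45, 0.43 and 0.35, the gamma median without the c-type 0.48, 0.48 and 0.43 and the c-type median 0.22, 0.22 and 0.21, and the beta median on FPKM was 0.58 and 0.44. The gamma median without CM3, CF1 and CF2 was 0.49. The c-type median was also 0.37 with upper-quartile scaling, 0.37 with the top transcript, 0.37 without those 3 libraries, 0.42 without them and DF1, and 0.26 to 0.37 when a library was left out. Neighbours called higher were 9 with the top transcript and 9 without CM3, CF1 and CF2, where 3 were lower. Member transcripts called higher were 29 to 50, and lower 1 to 2, when a library was left out, and 29 and 2 without those 3 libraries and DF1. Members with no overlap were 28, and 49 without DF1. With the top transcript Pcdhga9 changed by -0.0021 and Pcdh12 by -0.91. The cause of these shifts was not tested. Over all genes 3976 were called higher and 4160 lower, but 2834 and 5164 with library totals and 2329 and 4282 on log2(FPKM + 0.1). The median log2 change of all genes was 0.02, -0.08 and -0.06 in the same order. With a replicate block 51 members were called higher averaged over sexes, 53 in males and 22 in females, where 3811, 3074 and 551 of all genes were. This moved no member count by over 1.5 times. Deviations of same-numbered libraries from different groups had correlations of -0.33 to 0.09, and those of differently numbered ones -0.17 to 0.23. This cannot exclude that the numbers pair the samples, and the labels do not say. No model of the circular RNA was possible, since 1 library had reads. The alternatives for circular RNA were not run for that reason.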
